A study of Mus musculus with 6 samples.

Results

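Expressed antisense-type lncRNAs are long non-coding RNA genes that the annotation types as antisense to another gene, and 223 of them were expressed in macrophages sorted from Lewis lung carcinoma tumours. They were chosen from the 55487 genes of the count tables as genes of GENCODE M21 type antisense with a raw count of 10 or more in at least 3 of 6 libraries. Airn, Kcnq1ot1 and Gm16104 reached that count and were left out by name, as were Malat1, Neat1 and symbols beginning Snhg or Mir. The annotation holds 2959 antisense-type genes, of which 1300 had at least 1 read. The counts themselves chose the members, so their being expressed is a description and not a result.

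Both groups came from C57BL/6 mice carrying subcutaneous tumours of Lewis lung carcinoma, a transplantable mouse lung cancer line, and no genotype, drug, sex or age is given for either. After 15 to 17 days the tumours were dissociated, CD11b+ cells were enriched on magnetic beads, and F4/80+ CD11b+ cells lacking Ly-6G and Ly6C were sorted into 2 gates by surface MHC class II. Each gate gave 3 libraries, labelled MHC-II high or MHC-II low and here called labelled-high and labelled-low, with 1 of each in every batch from 1 to 3. Separate mice are not named for the 3 libraries of a label, so the p-values rest on a spread that may be technical. In such bulk samples, fewer cells of a type and less RNA per cell cannot be told apart.

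The transcripts of MHC class II went against the labels. H2-Aa, a chain of the surface molecule in the gate, averaged 5.52 ± 1.15 CPM (counts per 1000000 reads of scaled library size) in the labelled-high libraries and 1350 ± 172 CPM in the labelled-low ones (SD, n = 3 each; log2 fold change -7.93, SE 0.28, edgeR adjusted p = 2.6e-05). H2-Ab1, H2-Eb1 and Cd74 fell likewise, with log2 fold changes of -5.94, -8.34 and -6.64. All directions below are therefore those of the labels, high over low. The gate markers Adgre1, which encodes F4/80, and Itgam, which encodes CD11b, were present in all 6 libraries at 151 to 372 CPM. Adgre1 had 337, 321 and 372 CPM in the labelled-high libraries and 219, 183 and 151 CPM in the labelled-low ones. These groups did not overlap (log2 fold change 0.90, SE 0.19, edgeR adjusted p = 0.132), whereas those of Itgam did. The 10 macrophage markers summed to 9815 to 11801 CPM in the labelled-high libraries and 6680 to 11506 CPM in the labelled-low ones. Monocyte markers, 4 in the list, summed to 161 to 247 CPM in the labelled-high libraries and 288 to 765 CPM in the labelled-low ones, without overlap and with none called. Neutrophil markers, 5 with Ly6g at 0, summed to 13.9 to 16.1 CPM in the labelled-high libraries and 12.4 to 28.4 CPM in the labelled-low ones. The 4 endothelial markers summed to 16.2 to 20.2 CPM in the labelled-high libraries and 12.8 to 20.9 CPM in the labelled-low ones. T and NK cell markers, 5 with Cd3d and Cd3e at 0, reached at most 0.178 CPM in any library. Labelled-low replicate 3 stood apart: 47.3% of its gene reads fell on CT010467.1, a ribosomal RNA copy, against 3.85% to 13.5% in the other 5 libraries. It had the fewest reads in genes, 10202879, against 15159356 to 25473051, and only 78 members reached 10 reads there, against 178 to 207 in each of the other libraries.

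Antisense transcripts arise from promoters inside or beyond a gene, or from the far side of a promoter that fires in both directions. Some act on the chromatin, splicing or stability of the gene they oppose, as Airn and Kcnq1ot1 do in imprinting, and others are turned over quickly by the nuclear exosome without a known role. In macrophages, antisense RNAs have been described beside inflammatory and lineage genes. Whether a read counts for the antisense gene or for the gene across from it depends on the strand setting of the counting, which is not given in the sources used here.

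The counts themselves bore on the strand. Counting that ignores strand would leave a read in exons of both genes unassigned, yet 71 antisense-type genes lay wholly inside exons of the opposite strand and 30 of these had reads, 296 in all. Counting on the wrong strand would give such a gene the reads of its neighbour. Of 54 antisense-type genes at least 95% inside the exons of an opposite gene with 1000 or more reads, 24 had no read, 42 stood under 1% of the opposite gene per kb, and the median was 0.189%. The largest was 40.5%. Between 0.324% and 0.864% of each library was listed as ambiguous. Antisense and sense reads were thus kept apart in the files, although a low rate of wrong-strand reads was not measured, and 20 members stood below 2% of their partner.

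Sequence between the starts shows how close some of these genes lie to their neighbour. Promoter windows in RefSeq (GRCm38.p6), from 250 bases before to 50 after a start, were found for 99 members, 136 windows in all. The stretch between the starts of Junos and Jun, which encodes an AP-1 subunit, is shown because Junos was among the 8 members with the highest level, and that between Etaa1os and Etaa1, a gene of the replication stress response, because the pair does not overlap at all. The Junos stretch is chr4:95052223-95052316 and the Etaa1os stretch chr11:17953876-17953969, both on the plus strand and free of exons of either gene in GENCODE, where the outermost start of Junos lies inside Jun. Capitals mark CCAAT boxes (CCAAT, here as ATTGG on the other strand) and GC boxes (GGGCGG).
Junos to Jun: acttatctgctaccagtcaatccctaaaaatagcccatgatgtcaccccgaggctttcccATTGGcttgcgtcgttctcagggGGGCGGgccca
Etaa1os to Etaa1: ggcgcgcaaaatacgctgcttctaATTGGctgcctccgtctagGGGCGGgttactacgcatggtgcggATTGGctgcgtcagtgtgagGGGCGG

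The 94 bases between each pair of starts hold 4 CpG in the Junos stretch and 9 in the Etaa1os stretch. Windows of members whose start lay within 500 bases of an opposite-strand start had a median CpG observed over expected of 0.879 over 31 windows, against 0.422 over the other 105 member windows and 0.384 over all 32851 windows in RefSeq. Their median GC content was 66.3%, against 52.3% in the other member windows. On either strand, the CCAAT box was in 39.0% of member windows and 37.4% of all windows, and the GC box in 41.9% and 35.7%. The TATA box (TATAAA) was in 8.09% and 13.6%, the PU.1 core (GAGGAAGT) in 4.41% and 3.20%, and the AP-1 site (TGANTCA) in 8.09% and 7.81%. The cAMP response element (TGACGTCA) was in 0.735%, which is 1 member window, and 1.79%. Member windows are thus close to all windows for most of these letters, and a match is a description, not a site.

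Starting close to a neighbour was common. An opposite-strand gene started within 500 bases of 68 members (30.5%), against 20.7% of the 1077 antisense-type genes with a read that were no members and 8.62% of the 1659 with none. Within 1000 bases it was 105 members (47.1%), against 32.0% and 13.7%. The opposite start lay inside the member or downstream of its start in 72 of the 105, so that the 5′ ends overlapped, and upstream in the other 33. The members were chosen by level, and genes without reads can include models of tissues not sampled here, so these shares describe the choice.

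**Figure D1:**
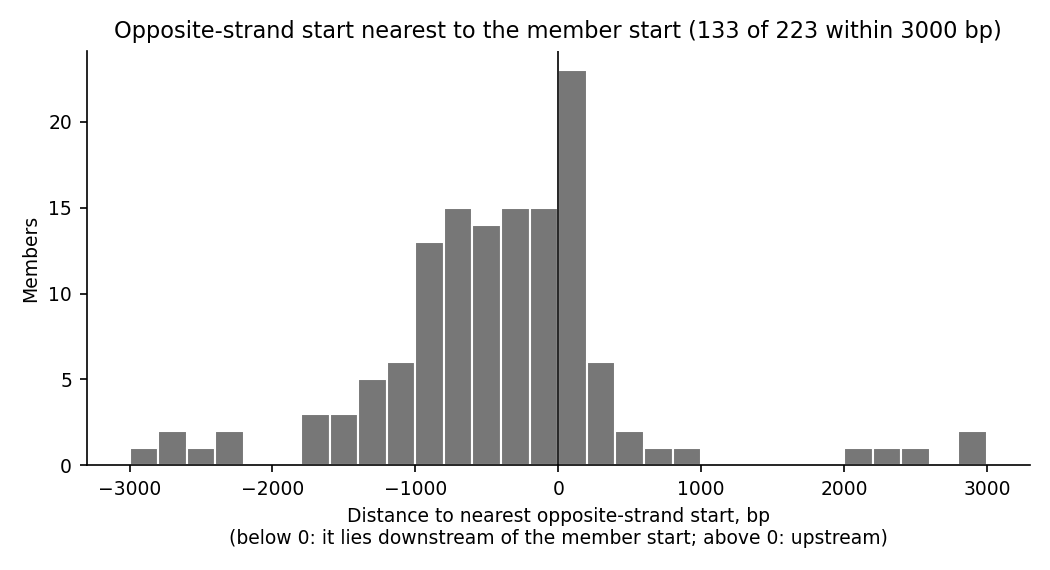
Distance in bases from each member's start to the nearest opposite-strand start in GENCODE M21, in bins of 200 bases, for the 133 members within 3000 bases. Values below 0 are opposite starts downstream of the member's start, values above 0 are upstream, and the tallest bin lies just upstream of 0.

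By position, 173 members shared exon bases with an opposite-strand gene, 30 overlapped only introns, 11 did not overlap but started within 2000 bases of an opposite start, and 9 had no such neighbour. For each overlapping member the partner was the opposite-strand gene that shared most bases with it. Of 203 members with a partner, 76 overlapped it head to head, 66 lay inside it, 45 overlapped it tail to tail and 16 contained it. The partner was protein-coding for 192. Exon bases shared with a gene on the same strand were present in 15 members, Tug1, Zeb2os and Junos among them, and reads there could be left unassigned.

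Members were rare transcripts. Over the 206 that passed the filter of the test, the median level was 0.71 CPM per kb of exon (quartiles 0.349 and 1.25), against 0.897 in 250 tested lincRNA genes and 4.03 in 11626 protein-coding genes. All members together, the 17 untested ones included, had a median of 0.664 CPM per kb and a median of 125 reads over the 6 libraries. The 43 members that reached 10 reads in exactly 3 libraries held 43 to 90 reads, and the 47 antisense-type genes that did so in 2 held 32 to 63. All 6 libraries passed 10 reads for 74 members. Only 3 members passed through the labelled-high libraries alone, and 0 through the labelled-low ones alone.

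The members' reads made up 0.0846%, 0.0856% and 0.0877% of the reads in genes in the labelled-high libraries, and 0.133%, 0.107% and 0.246% in the labelled-low ones. A single member, Gm15564, set that difference. Without it the members summed to 579, 620 and 636 CPM in the labelled-high libraries and 601, 641 and 549 CPM in the labelled-low ones, and the groups overlapped. These CPM rest on scaled library sizes, with a scaling factor of 0.55 in labelled-low replicate 3, and are not shares of all reads in genes. As such a share, the members without Gm15564 were lowest in that library, at 3077 of 10202879 reads.

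Per kb of exon, Gm15564 came first among the members, followed by 4930430E12Rik at 14.2 CPM per kb, Gm12905 at 9.47, Tug1 at 9.26, Zeb2os at 7.94, Brip1os at 7.63, Gm12207 at 6.41 and Junos at 6.23. Tug1, a lncRNA first described in the mouse retina and starting 482 bases inside its neighbour Morc2a, was the most abundant of these after Gm15564 in plain CPM. It had 78.3, 97.6 and 104 CPM in the labelled-high libraries and 83.3, 128 and 49.1 CPM in the labelled-low ones. The widest values of Tug1 were both in the labelled-low libraries, and the groups overlapped (log2 fold change 0.10, SE 0.32, edgeR adjusted p = 0.89). Morc2a, a chromatin ATPase, averaged 48.1 ± 1.3 CPM in the labelled-high libraries and 47.4 ± 2.3 CPM in the labelled-low ones (SD, n = 3 each). Tug1 thus stood at 125% of its partner per kb.

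Zeb2os lies wholly inside Zeb2, a zinc finger repressor needed for macrophage and dendritic cell identity. In human cells an antisense RNA at this locus alters splicing of the ZEB2 transcript. Zeb2os had 13.8, 16.5 and 18.8 CPM in the labelled-high libraries and 14.3, 17.0 and 14.5 CPM in the labelled-low ones. These values overlapped, and Zeb2os stood at 17.2% of Zeb2 per kb.

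Brip1os starts 177 bases from Brip1, a helicase of DNA repair, and contains the partner Ints2, an Integrator subunit. It had 49.5, 59.7 and 63.5 CPM in the labelled-high libraries and 41.1, 43.8 and 39.8 CPM in the labelled-low ones. All 3 libraries labelled high were above all 3 labelled low, but the difference did not pass the test (log2 fold change 0.47, SE 0.17, edgeR adjusted p = 0.383), and it was 0.15 with the GC offset and 0.74 with total counts. Junos averaged 26.4 ± 2.5 CPM in the labelled-high libraries and 24.9 ± 1.8 CPM in the labelled-low ones (SD, n = 3 each; edgeR adjusted p = 0.802), and Jun 173 ± 52 CPM in the labelled-high libraries and 198 ± 57 CPM in the labelled-low ones (SD, n = 3 each). 4930430E12Rik, which overlaps no opposite gene, had 19.1, 18.5 and 20.7 CPM in the labelled-high libraries and 14.1, 16.0 and 8.03 CPM in the labelled-low ones. Those groups did not overlap either (log2 fold change 0.59, SE 0.27, edgeR adjusted p = 0.42), and the value was 0.37 without labelled-low replicate 3, 0.32 without batch 3 and 0.35 with the GC offset. Gm12905 and Gm12207 differed by 0.03 and 0.07 on the log2 scale.

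**Figure D2:**
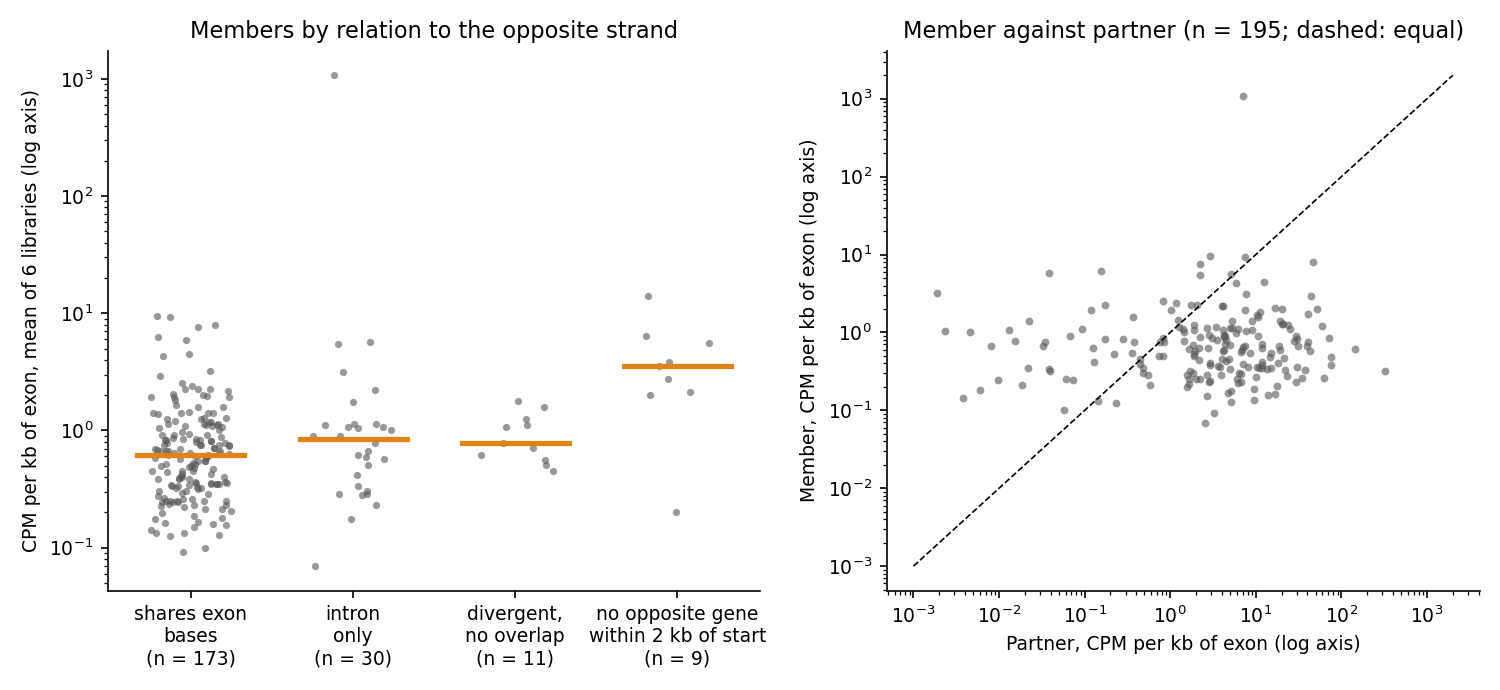
Left, level of each member in CPM per kb of exon, mean of 6 libraries on a log axis, by its relation to the opposite strand, with orange bars at the medians. Right, level of each member against its partner on log axes for the 195 partners above 0; the dashed line marks equal levels, and 148 members lie below it and 47 above.

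Relative to the gene across from them, most members were minor transcripts. Of 195 members whose partner had reads, 148 were below it per kb and 47 above, with a median of 16.7% of the partner's level (quartiles 4.32% and 92.9%). The other 8 partners were listed at 0. Counting the members' exon length without shared bases left 193 pairs with 55 members above and a median of 23.3%. Taking the opposite gene with the highest count as partner gave 199 pairs with 33 above and a median of 12.4%. The median share was 8.63% for members head to head with their partner, 26.6% tail to tail, 36.3% inside it and 66.7% around it. Across the 195 pairs the levels of member and partner had a Spearman correlation of 0.04, a description over pairs that share libraries.

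The members furthest below their partner faced abundant transcripts. Apol7d, which overlaps the start of fibronectin (Fn1), stood at 0.101% of it per kb, Gm7008 at 0.417% of Ifrd1, Gm28809 at 0.426% of the tetraspanin Cd9, Gm10602 at 0.514% of the folate receptor Folr2, and Gm15441 at 0.646% of Txnip, an inhibitor of thioredoxin. At these shares a low rate of wrong-strand reads could add to the count, and it was not measured by itself. The 54 antisense-type genes inside exons of an abundant opposite gene, described above, had a median of 0.189% of it per kb, 24 of them without a read. At the other end, Gm16098, 5033421B08Rik, Gm26982 and 2010310C07Rik ran against Fam83c, Slc7a15, the ghrelin gene Ghrl and Epha1, which averaged between 0 and 0.0477 CPM in each label. Gm26982, for example, averaged 6.55 ± 0.68 CPM in the labelled-high libraries and 6.95 ± 2.60 CPM in the labelled-low ones (SD, n = 3 each). These antisense genes were transcribed where the partner, the gene sharing most bases, was close to silent. Gm16098 also overlaps a second opposite-strand gene, the translation factor gene Eif6, and starts 137 bases inside it. Eif6 averaged 49.9 ± 2.8 CPM in the labelled-high libraries and 85.0 ± 25.0 CPM in the labelled-low ones (SD, n = 3 each). Gm16098 stood at 12.9% of Eif6 per kb.

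In the test over all 14140 genes with edgeR, 0 of the 206 tested members passed adjusted p 0.05. Over all genes 0.446% were called, 0.0919% higher and 0.354% lower in the labelled-high libraries, so about 1 call would match the background. At an unadjusted p under 0.05 there were 15 members (7.28%), against 12.1% of all genes. The members' standard errors were wider, with a median of 0.43 on the log2 scale against 0.29 over all genes. The 250 lincRNA genes had a median standard error of 0.42, 11.2% at an unadjusted p under 0.05, and 1 call. DESeq2 called 3 members, Peak1os higher and Gm15964 and Gm15564 lower (2.81% of all genes called), and limma-voom called 0 (0.368%). Without the filter on low counts edgeR called Bach2os, Peak1os and Gm15564 (2.02%), with total counts as library sizes Gm15564 alone (0.424%), with a GC offset none (2.57%), with the batch as a block none (0.29%), and with both the GC offset and the block Gm15964 (3.85%). Leaving out labelled-low replicate 2 gave 3 lower members, Gm15964, Gm15564 and Gm49774 (7.16%).

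The direction by label was close to even. There were 95 tested members with a positive and 111 with a negative log2 fold change, and the median was -0.06, against -0.02 over all genes. Only 7 exceeded 1 and 10 were below -1. All 3 libraries labelled high were above all 3 labelled low in 15 members (7.28%), against 10.5% of all genes, and below them in 18 (8.74%), against 9.48%. With total counts the median of all genes moved to 0.25 and that of the members to 0.20, so the members stayed close to the background while their sign turned. Members sharing exon bases with a partner had a median of -0.07, those over introns -0.03 and the divergent ones 0.11.

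GC content moved with the comparison over all genes. Across genes, log2 fold change and GC content had a Spearman correlation of -0.58 over all 14140 genes and -0.21 over the 206 members, as a description over genes of the same libraries. Its part in single members was not tested beyond the GC offset.

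The 6 members with the largest positive difference, among those at 1 CPM or more in the higher label and with one direction in all batches, were Peak1os, Gm16192, Plxna4os1, Bach2os, Gm26626 and Gm16638. Peak1os lies inside Peak1, a scaffold pseudokinase, at chr9:56257890-56267780. It had 2.95, 3.83 and 4.93 CPM in the labelled-high libraries and 2.08, 0.981 and 0.535 CPM in the labelled-low ones. Every library labelled high was above every one labelled low (log2 fold change 1.60, SE 0.45, edgeR adjusted p = 0.242). DESeq2 gave an adjusted p of 0.0374, within a range of 0.00714 to 0.694 over all alternatives. The lowest value rested on 3 reads, in replicate 3. Peak1 averaged 265 ± 14 CPM in the labelled-high libraries and 228 ± 20 CPM in the labelled-low ones (SD, n = 3 each).

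Gm16192 lies inside Mtus1, which encodes a microtubule-associated protein. It had 1.78, 1.11 and 1.00 CPM in the labelled-high libraries and 0.48, 0.409 and 0.357 CPM in the labelled-low ones. The groups did not overlap (log2 fold change 1.58, SE 0.44, edgeR adjusted p = 0.232). Mtus1 ran in the same direction, at 52.6 ± 4.0 CPM in the labelled-high libraries and 31.9 ± 1.3 CPM in the labelled-low ones (SD, n = 3 each; edgeR adjusted p = 0.151).

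Gm26626 lies inside Runx1, a transcription factor of blood cell development. It had 1.17, 1.20 and 1.07 CPM in the labelled-high libraries and 0.32, 0.695 and 0.535 CPM in the labelled-low ones, again without overlap (log2 fold change 1.13, SE 0.43, edgeR adjusted p = 0.385). Runx1 averaged 84.6 ± 5.4 CPM in the labelled-high libraries and 101 ± 12 CPM in the labelled-low ones (SD, n = 3 each). Gm16638 also kept its groups apart, whereas Plxna4os1, inside the semaphorin receptor gene Plxna4, overlapped.

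The 6 with the largest negative difference were Gm15564, Gm15964, A830082K12Rik, Gm49774, Gm17146 and Gm35853. Gm15964 contains Dnajc28, which encodes a J domain protein, at chr16:91611468-91623861. It had 2.78, 1.87 and 2.97 CPM in the labelled-high libraries and 6.50, 3.97 and 8.21 CPM in the labelled-low ones. The groups did not overlap (log2 fold change -1.26, SE 0.35, edgeR adjusted p = 0.232), and the value was -1.04 without labelled-low replicate 3. Over the alternatives its adjusted p ran from 0.0264 to 0.848.

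Gm49774 starts 21 bases inside Hmga1, a chromatin architectural gene. It had 3.51, 3.47 and 2.36 CPM in the labelled-high libraries and 6.61, 4.33 and 8.92 CPM in the labelled-low ones (log2 fold change -1.06, SE 0.34, edgeR adjusted p = 0.305), and the value was -0.67 with the GC offset and -0.64 without batch 3. Hmga1 ran the same way, at 31.7 ± 5.2 CPM in the labelled-high libraries and 56.3 ± 28.3 CPM in the labelled-low ones (SD, n = 3 each; edgeR adjusted p = 0.405). The log2 ratio of Gm49774 to Hmga1 differed by -0.32 (limma adjusted p = 0.609). Gm35853 contains the keratin gene Krt80. It had 2.06, 1.83 and 1.11 CPM in the labelled-high libraries and 4.48, 3.07 and 2.14 CPM in the labelled-low ones. In neither Gm49774 nor Gm35853 did the labels overlap. Krt80 ran the same way as Gm35853, with 19.0 ± 4.1 CPM in the labelled-high libraries and 45.1 ± 19.0 CPM in the labelled-low ones (SD, n = 3 each; edgeR adjusted p = 0.235). A830082K12Rik, head to head with the nuclear receptor gene Nr2f1, and Gm17146 overlapped between the labels.

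**Figure D3:**
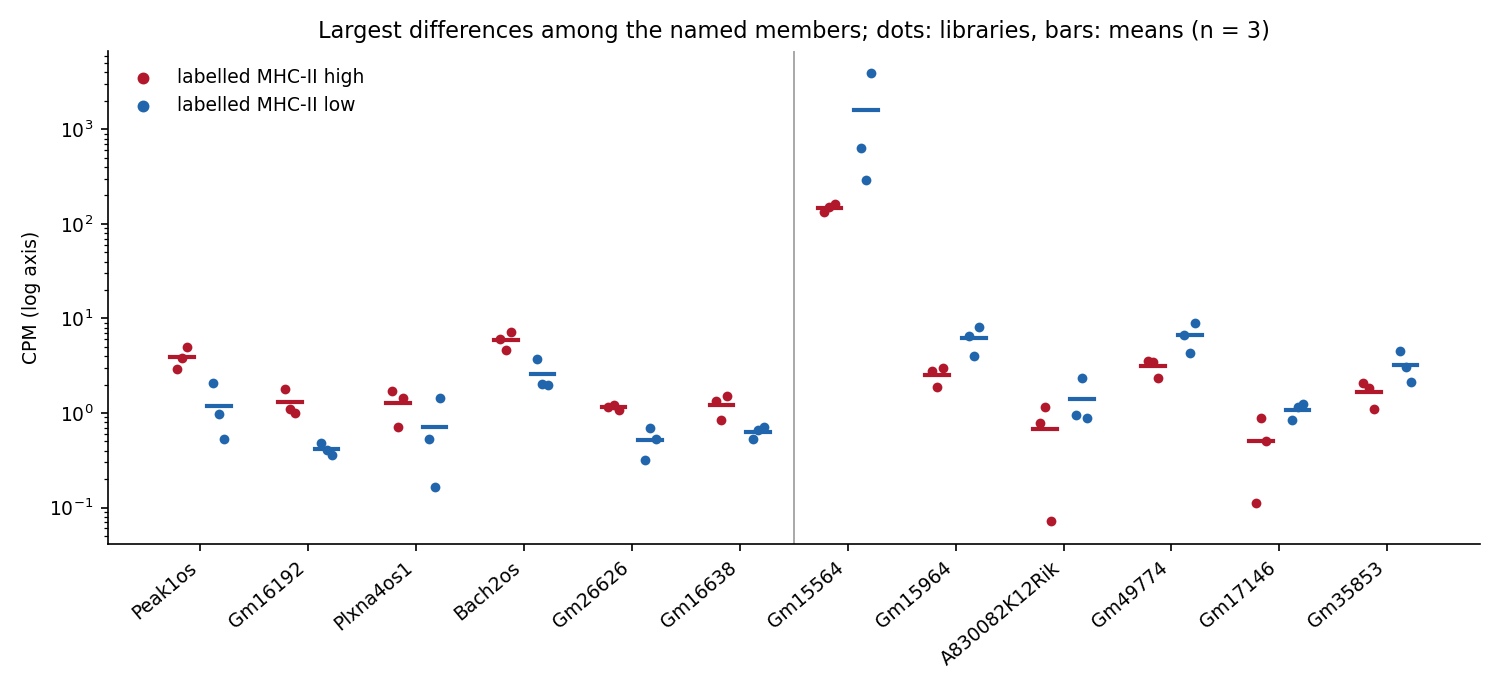
CPM on a log axis in each library of the 12 members with the largest differences by the rule above, libraries labelled MHC-II high in red at the left of each pair and MHC-II low in blue at the right, bars at the mean of 3. The 6 members left of the grey line have positive log2 fold changes and the 6 right of it negative ones, none past adjusted p 0.05 with edgeR. In Gm15564 the mean of the labelled-low libraries is carried by replicate 3.

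Gm15564, on chr16:35966752-35983230 on the minus strand, overlaps introns of Parp9, whose product joins an ADP-ribosylation complex. It had 2421, 3351 and 4551 reads in the labelled-high libraries and 11778, 7133 and 22020 in the labelled-low ones, for replicates 1, 2 and 3. In CPM this was 135, 149 and 163 in the labelled-high libraries and 628, 292 and 3930 in the labelled-low ones. All libraries labelled low were higher and they differed widely among themselves (log2 fold change -3.44, SE 0.87, edgeR adjusted p = 0.194). Without labelled-low replicate 3 the log2 fold change was -1.63 with an adjusted p of 0.0721, and over all alternatives the adjusted p ran from 1.29e-27 to 0.632. DESeq2 gave 0.0373.

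The ribosomal RNA copy CT010467.1 was, like Gm15564, highest in labelled-low replicate 3 and next highest in labelled-low replicate 1. In replicate 2 only Gm15564 was higher in the labelled-low library, and CT010467.1 was not. That copy took 5.17%, 4.17% and 3.85% of the reads in genes in the labelled-high libraries and 13.5%, 3.87% and 47.3% in the labelled-low ones. Gm15564 equalled 0.309%, 0.398% and 0.464% of the reads of CT010467.1 in the labelled-high libraries and 0.506%, 0.867% and 0.456% in the labelled-low ones. Its level thus ranged more widely between libraries than its ratio to CT010467.1 did, and the part of ribosomal RNA reads in it was not tested. Parp9 averaged 35.0 ± 6.1 CPM in the labelled-high libraries and 34.5 ± 8.9 CPM in the labelled-low ones (SD, n = 3 each).

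Among members and partners tested together, 153 pairs, 46 had both genes higher, 43 both lower, 27 the member higher and the partner lower, and 37 the reverse. The sign was the same in 89 (58.2%), and the Spearman correlation of the 2 log2 fold changes was 0.23 over pairs from the same libraries. It was 0.19 for 62 head-to-head pairs, 0.24 for 35 tail to tail and 0.29 for 48 members inside their partner. For the 55 members starting within 500 bases of a tested opposite start, 31 had the same sign as that gene and the correlation was 0.21. Only 1 partner was called, Serpinb6a, a protease inhibitor, which rose to 296 ± 11 CPM in the labelled-high libraries, against 107 ± 30 CPM in the labelled-low ones (SD, n = 3 each; log2 fold change 1.47, edgeR adjusted p = 0.0453). The member inside it, 1110046J04Rik, had 1.50, 1.83 and 1.32 CPM in the labelled-high libraries and 0.533, 1.39 and 0.357 CPM in the labelled-low ones. Those values overlapped (log2 fold change 0.87, SE 0.49, edgeR adjusted p = 0.467).

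**Figure D4:**
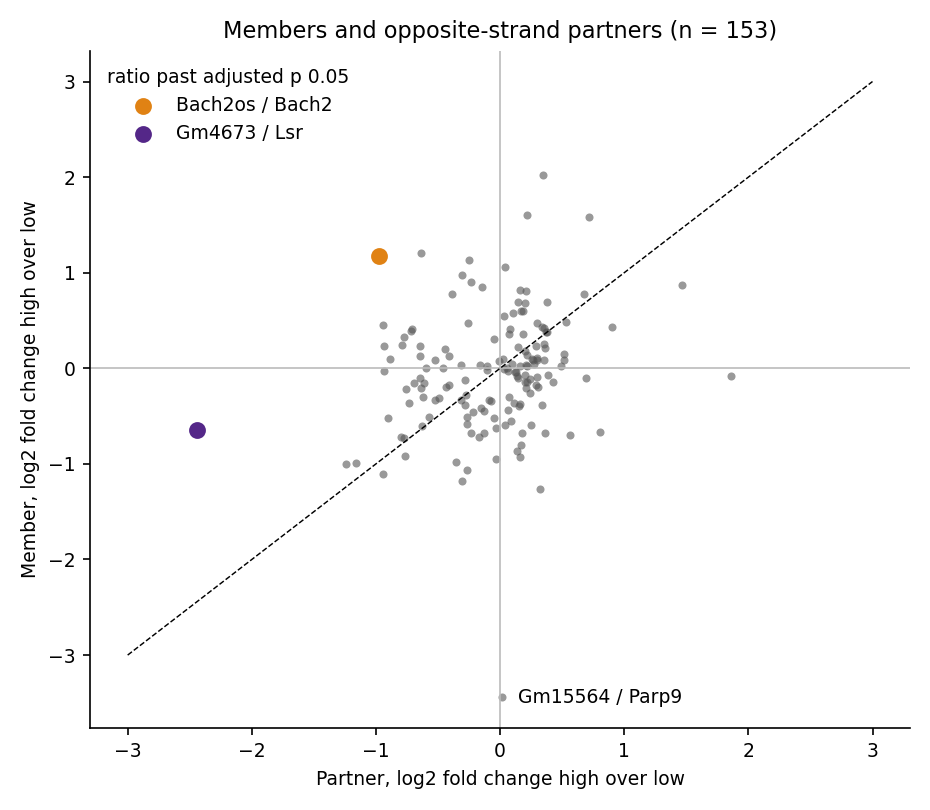
Log2 fold change, libraries labelled MHC-II high over MHC-II low, of each member against that of its partner for 153 tested pairs. Points scatter around 0 in all 4 quadrants with 89 of the same sign; Bach2os and Gm4673, in colour, lie away from the dashed line of equal change, as does Gm15564.

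The ratio of an antisense gene to the gene across from it cancels library size, except for the 1 added to each count, which weighs more at low counts. This ratio was tested with limma as the difference of log2(count + 1) within each library over 1465 overlapping pairs of tested genes. Over all pairs 13 were called at adjusted p 0.05 (0.887%). Of the members, 167 stood in 211 pairs, so some count more than once. Of these pairs 2 were called, both with a higher antisense share in the labelled-high libraries. That number is close to what the share over all pairs would give, so the 2 pairs are described as single pairs. At an unadjusted p under 0.05 there were 25 member pairs of 211, again close to the 12.2% of all pairs. With the batch as a block no member pair was called, with adjusted p = 0.0564 for Bach2os to Bach2 and 0.0537 for Gm4673 to Lsr.

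The pair with the smaller p was Bach2os and Bach2. Bach2 encodes a transcriptional repressor best known in B and T lymphocytes, and Bach2os lies inside it on chr4:32559680-32571708, minus strand, sharing 537 exon bases. Bach2os had 108, 104 and 199 reads in the labelled-high libraries and 70, 49 and 11 in the labelled-low ones. Bach2 had 149, 121 and 180 reads in the labelled-high libraries and 266, 198 and 99 in the labelled-low ones. The log2 ratio was -0.46, -0.22 and 0.14 in the labelled-high libraries and -1.91, -1.99 and -3.06 in the labelled-low ones. Antisense and sense reads were thus near equal under the high label, whereas sense reads prevailed in every library under the low label (difference 2.14, SE 0.35, limma adjusted p = 0.0252).

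Neither gene of the pair was called alone. Bach2os averaged 5.92 ± 1.24 CPM in the labelled-high libraries and 2.57 ± 1.02 CPM in the labelled-low ones (SD, n = 3 each; edgeR adjusted p = 0.257). Bach2 averaged 6.71 ± 1.47 CPM in the labelled-high libraries and 13.3 ± 4.8 CPM in the labelled-low ones (SD, n = 3 each; edgeR adjusted p = 0.34). The ratio difference was 1.77 with adjusted p = 0.0209 without labelled-low replicate 3. Leaving out any library labelled MHC-II high, or replicate 1 of those labelled low, kept the direction and lost the call, with adjusted p from 0.0637 to 0.142.

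The RefSeq window at the start of Bach2os is shown because this start lies inside Bach2 and far from any opposite-strand start, the nearest being 39643 bases away. It spans chr4:32571613-32571912 on the minus strand and touches no Bach2 exon, and its RefSeq start is 46 bases from the GENCODE start. It holds 1 CpG in 300 bases, an observed over expected of 0.0682, unlike the CpG-rich windows of members near an opposite start. Capitals mark the CCAAT box, as ATTGG.
Bach2os window: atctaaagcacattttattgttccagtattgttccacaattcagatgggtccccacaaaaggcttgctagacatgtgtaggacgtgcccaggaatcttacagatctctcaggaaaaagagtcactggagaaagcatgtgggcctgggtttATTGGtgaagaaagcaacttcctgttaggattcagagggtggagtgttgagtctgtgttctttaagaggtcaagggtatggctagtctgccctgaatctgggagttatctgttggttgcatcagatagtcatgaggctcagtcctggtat

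Dendritic cell markers were, like Bach2, higher on average in the labelled-low libraries. The 7 in the list summed to 1.56 to 2.00 CPM in the labelled-high libraries and 11.2 to 20.6 CPM in the labelled-low ones, with none at 0 in all libraries. Of the 4 tested, edgeR called 2 lower. Between the libraries of a label, the sums and Bach2 ran in opposite order. Replicates 1, 2 and 3 labelled low had marker sums of 17.1, 20.6 and 11.2 CPM, and Bach2 at 14.2, 8.09 and 17.7 CPM. Those labelled high had sums of 1.56, 2.00 and 1.89 CPM, and Bach2 at 8.29, 5.39 and 6.44 CPM. Monocyte and epithelial markers also summed higher in the labelled-low libraries, without overlap. The part of any of these cells in the Bach2 reads was not tested.

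The second pair was Gm4673 and Lsr, a lipoprotein receptor gene that also marks epithelial junctions. Gm4673, at chr7:30956909-30961619, starts 106 bases from Usf2 and meets Lsr tail to tail, sharing 946 exon bases. Gm4673 had 74, 95 and 86 reads in the labelled-high libraries and 96, 118 and 47 in the labelled-low ones. Lsr had 96, 96 and 80 reads in the labelled-high libraries and 373, 277 and 209 in the labelled-low ones. The difference came mainly from the sense gene, since Lsr had a log2 fold change of -2.44 and Gm4673 one of -0.65, with edgeR adjusted p of 0.0845 and 0.429. Without labelled-low replicate 3 the value of Gm4673 was -0.39, and without batch 3 it was -0.25. Usf2 had a log2 fold change close to that of Gm4673, -0.67 (edgeR adjusted p = 0.408). It averaged 27.8 ± 1.2 CPM in the labelled-high libraries and 44.5 ± 18.8 CPM in the labelled-low ones (SD, n = 3 each).

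The log2 ratio of Gm4673 to Lsr was -0.37, -0.01 and 0.10 in the labelled-high libraries and -1.95, -1.22 and -2.13 in the labelled-low ones, without overlap (difference 1.67, SE 0.29, limma adjusted p = 0.0303). Leaving out labelled-low replicate 2 gave an adjusted p of 0.00721, and leaving out any other library gave 0.0637 to 0.207. With the GC offset the difference was 1.31 (limma adjusted p = 0.0135). Epithelial markers, 4 in the list, summed to 14.7 to 21.7 CPM in the labelled-high libraries and 41.0 to 42.6 CPM in the labelled-low ones. None was at 0 in all libraries, 1 of the 3 tested, Cdh1, fell, and their part in the Lsr reads was not tested.

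**Figure D5:**
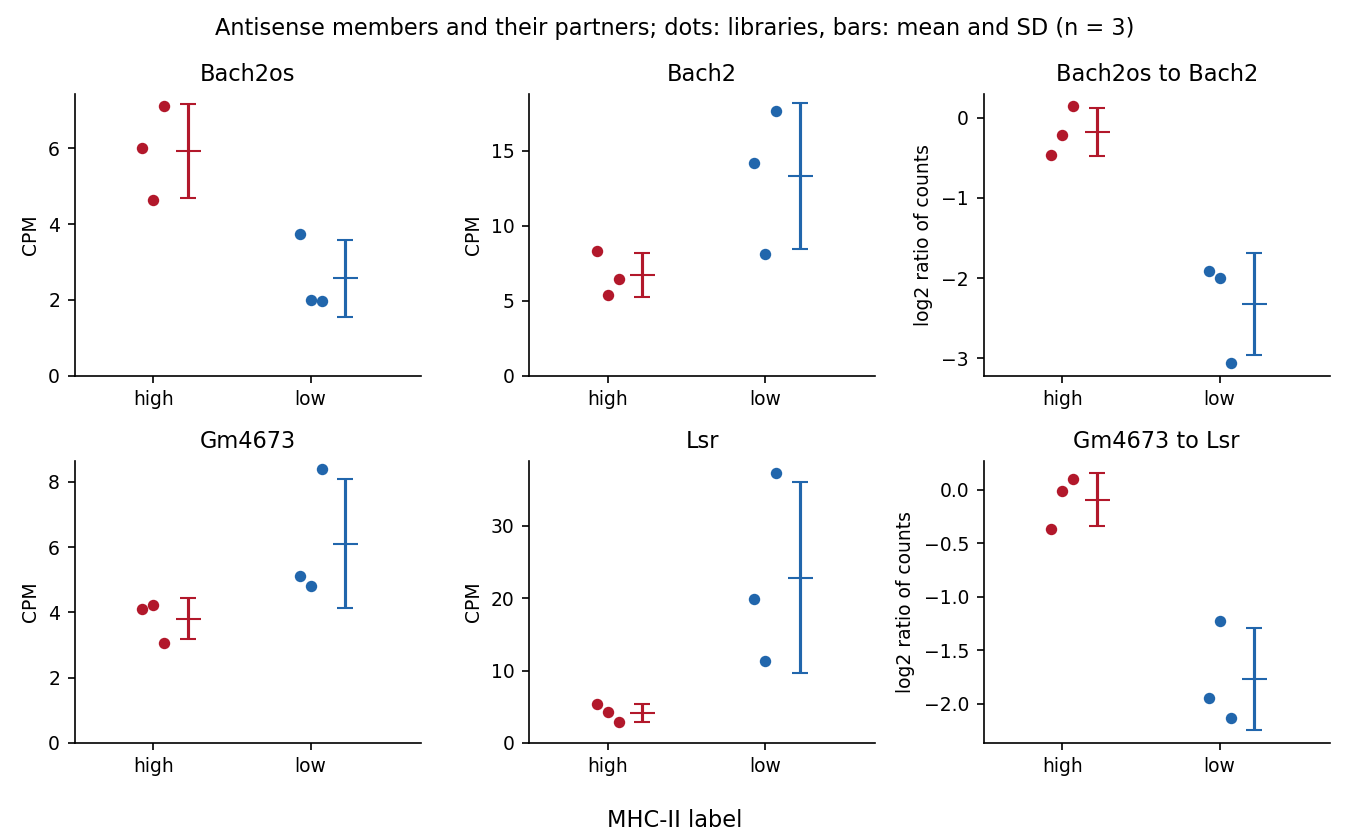
CPM of each antisense gene and its partner, and the log2 ratio of their counts, in each library labelled MHC-II high (red, left) and MHC-II low (blue, right), with mean and SD of 3. In both rows the ratios of the labelled-high libraries lie near 0 and those of the labelled-low libraries between -3.06 and -1.22.

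Of 47 antisense and related lncRNAs listed for described roles, 5 were members, and none of the 5 was called. Tug1 and Zeb2os are given above. Dnm3os, the host of microRNAs of the miR-199a and miR-214 families, had 6.01, 10.1 and 1.36 CPM in the labelled-high libraries and 4.80, 13.8 and 0.892 CPM in the labelled-low ones. Its values differed more between batches than between labels, with both batch 3 libraries lowest (log2 fold change -0.24, SE 0.85, edgeR adjusted p = 0.895). The 5 fibroblast markers of the list were also lowest in batch 3, at 380, 379 and 66.5 CPM in the labelled-high libraries and 474, 556 and 124 CPM in the labelled-low ones, with none at 0 in all libraries. Their part in Dnm3os was not tested. Nespas, transcribed against the imprinted Gnas locus, averaged 0.551 ± 0.043 CPM in the labelled-high libraries and 0.617 ± 0.410 CPM in the labelled-low ones (SD, n = 3 each), at 1.96% of Gnas per kb. Rab26os averaged 0.553 ± 0.141 CPM in the labelled-high libraries and 0.561 ± 0.345 CPM in the labelled-low ones (SD, n = 3 each).

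Some members faced genes of macrophage function. Of 27 genes of MHC and antigen presentation, 2 were partners, of 41 macrophage and dendritic cell genes 3, and of 53 inflammation and interferon genes 1. Gm33858, head to head with the fractalkine receptor Cx3cr1, had 1.28, 1.60 and 1.04 CPM in the labelled-high libraries and 2.24, 2.33 and 1.78 CPM in the labelled-low ones. These groups did not overlap (log2 fold change -0.72, SE 0.33, edgeR adjusted p = 0.42), while Cx3cr1 averaged 251 ± 37 CPM in the labelled-high libraries and 283 ± 65 CPM in the labelled-low ones (SD, n = 3 each). Gm19412, inside the peptide-loading gene Tapbp, averaged 0.608 ± 0.262 CPM in the labelled-high libraries and 1.15 ± 0.34 CPM in the labelled-low ones (SD, n = 3 each), with overlap. Gm11131, head to head with the class I gene H2-Q4, a member of a family of close copies whose reads may be split, differed by 0.20 on the log2 scale. Gm15283, which contains the hypoxia factor gene Hif1a, stood at 1.17% of it per kb and differed by 0.38. Zeb2os and Gm26626, opposite Zeb2 and Runx1, are described above. Of 37 genes of RNA decay and double-stranded RNA handling, all tested, 0 were called by edgeR, and their median log2 fold change was 0.08.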

How the data were processed

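RNA was sequenced from 6 libraries (TruSeq Stranded Total RNA after RiboMinus depletion, per the labels' protocols). The deposited values are raw counts per gene made by the authors. Per the submitters' processing notes, the tools were HTSeq, STAR, Trimmomatic, FastQC and DESeq2, unversioned, and the build GRCm38. The 5 summary lines of each table stayed out of library sizes: reads in no feature were 35.2% to 49.4% of listed reads. GENCODE M21 matched 55227 of 55487 genes. The test was that of edgeR 4.0.16 in R 4.3.3 (quasi-likelihood, TMM, filterByExpr, Benjamini-Hochberg over 14140 genes), with DESeq2 1.42.0, limma-voom (limma 3.58.1), other scalings and filters, a GC offset, the batch block and left-out libraries as alternatives. CPM are counts over TMM-scaled library sizes. Opposite-strand ratios used limma with a trend. Fits were tested on simulated data. The labels' batch numbers pair the libraries, whose deviations from their group means correlated at 0.159, 0.335 and -0.116 in batches 1, 2 and 3. Members and lists were chosen with earlier results of these data known. Named genes were the 8 highest per kb, the 6 largest differences per direction at 1 CPM or more, called ratio pairs, listed genes and the 5 highest and lowest against the partner; 1110046J04Rik and genes of the closing section were chosen after their values were seen. Of 9 marker lists, the values of 1 are not reported here.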

Additional observations from a re-analysis of the deposited data

How the results depend on the processing

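Over all genes, edgeR called 13 higher and 50 lower. Higher calls numbered 8 with total counts, 121 with DESeq2, 113 without the filter, 124 with the GC offset, 0 without batch 3 and 0 to 246 when 1 library was left out. Lower calls numbered 277 with DESeq2, 436 without the filter, 240 with the GC offset, 28 without batch 3 and 8 to 784 when 1 library was left out. With the batch as a replicate block, higher calls fell to 1, and with the GC offset and the block together there were 169 higher and 376 lower. Of the members, none was called higher and none lower; DESeq2 called 1 higher and 2 lower, no filter 2 and 1, total counts 1 lower, the GC offset with the block 1 lower, and leaving out 1 library 0 to 3 lower, the 3 without labelled-low replicate 2. Called ratio pairs went from 13 to 21 with the GC offset and 1 to 42 with 1 library left out, and the 2 member pairs to 0 with the block and 0 to 4 with 1 library left out. The cause was not tested. Across 35 named members, 34 of 585 alternative values changed sign and 11 passed the threshold. The median member had 125 reads in all, and 145 of 223 had under 10 in labelled-low replicate 3.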

Other observations

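Of the other member pairs, none passed the test. Those next by p were Peak1os to Peak1 and Gm15964 to Gart, with limma adjusted p of 0.23 and 0.242, and the 2 below are given as values chosen after they were seen. Tnfsf13os, an antisense gene starting 54 bases from the SUMO protease gene Senp3, had a log2 ratio to its partner Tnfsfm13, a read-through of cytokine genes, of -0.44, -0.73 and -0.49 in the labelled-high libraries and 0.46, 0.20 and 0.54 in the labelled-low ones (limma adjusted p = 0.247). Every labelled-high library had fewer reads of Tnfsf13os than of Tnfsfm13 and every labelled-low library more. That holds for this partner only. To Tnfsf12, which Tnfsf13os also overlaps, the log2 ratio was between -3.98 and -3.26 in all 6 libraries (limma adjusted p = 0.543). To Tnfsf13 it was -0.52, -1.28 and -1.07 in the labelled-high libraries and 0.16, -0.54 and 0.83 in the labelled-low ones (limma adjusted p = 0.354). Gm49085, head to head with Rrm2b, a ribonucleotide reductase subunit, had a log2 ratio of -4.21, -4.24 and -4.27 in the labelled-high libraries and -2.90, -3.49 and -2.32 in the labelled-low ones (limma adjusted p = 0.274). The widest positive difference of any tested member, 2.02 on the log2 scale, was that of 4930458D05Rik, which had 15, 14 and 28 reads in the labelled-high libraries and 1, 8 and 1 in the labelled-low ones (edgeR adjusted p = 0.292). It averaged under 1 CPM in both labels.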
